A study of Mus musculus with 6 samples.

Results

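Type I interferon-stimulated genes were followed in single ovalbumin-specific CD4+ T cells from Peyer's patches. The group was a list of 41 mouse genes, which leaves out the immunity-related GTPases, and members were found by gene symbol. Of the 41, 40 had a row among the 32285 genes of every matrix, and Mx1 was not analysed here. The cells were OT-II T cells, which carry a transgenic receptor for an ovalbumin peptide. Their donors were OTII+/+RAG-/- mice, so all groups lacked RAG. Donors were either WT or TgfbrIWT/mut, that is, heterozygous for the M318R allele knocked into Tgfbr1, the kinase subunit of the TGF-beta receptor. CD4+ cells enriched on beads were moved into CD45.1 WT hosts, which keep their own lymphocytes and drank water with 1.5% ovalbumin for 7 days. On day 8 donor cells were recovered from Peyer's patches by sorting for CD45.2 without CD45.1 and for CD4 and TCRβ without CD8. Each genotype had 2 libraries, called WT 1, WT 2, mutant 1 and mutant 2, and another 2 WT samples labelled as hashtag libraries were not analysed here. The labels give no donor age and do not say how many mice a library holds, so p-values speak only to how these libraries vary, and that variation could be technical.

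Type I interferons are secreted proteins that act through the receptor chains Ifnar1 and Ifnar2 and the kinases Jak1 and Tyk2. The kinases switch on a transcription factor complex that holds Stat2 and Irf9 and binds interferon-response elements near many genes, raising their transcription. The products slow viral replication and feed back on the pathway, and T cells carry a low tonic level of several of them without infection. Some members, such as Ifit1, Ifit3, Rsad2 and Usp18, are nearly silent at rest and strongly inducible, while others, such as Slfn2 and Samhd1, are made constitutively in lymphocytes.

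Promoters are shown because they carry a feature that the choice of members did not use. The motif searched was a short form of the interferon-response element, GAAA, then 2 bases of any kind, then GAAA again, on both strands, so that on the other strand it reads TTTC, 2 bases, TTTC. Overlapping matches were counted. RefSeq promoter windows on GRCm38.p6 ran from 250 bases before to 50 bases after each annotated start. Of the 40 members, 31 matched this table (no window was used for Usp18, Oas2, Zbp1, Rtp4, Ifi27l2a, Dhx58, Parp9, Parp14 and Ly6a), and 16 of them (51.6%) held at least 1 match. Over all 27025 genes with a promoter entry, 1079 (3.99%) did. The 160 bases before the start follow for 4 members with matches that differ in how much of their signal lay in few cells, and for Slfn2, an abundant member without a match. Capitals mark each match, and overlapping matches run together.
Ifit1, chr19:34640729-34640888, plus strand: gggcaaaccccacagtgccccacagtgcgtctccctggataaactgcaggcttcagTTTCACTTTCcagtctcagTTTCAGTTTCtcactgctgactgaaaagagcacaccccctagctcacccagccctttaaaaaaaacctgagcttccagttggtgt
Ifit3, chr19:34583369-34583528, plus strand: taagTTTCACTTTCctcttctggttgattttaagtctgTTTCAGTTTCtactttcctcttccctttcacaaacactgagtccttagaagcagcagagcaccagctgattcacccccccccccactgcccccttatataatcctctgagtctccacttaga
Isg15, chr4:156200819-156200978, minus strand: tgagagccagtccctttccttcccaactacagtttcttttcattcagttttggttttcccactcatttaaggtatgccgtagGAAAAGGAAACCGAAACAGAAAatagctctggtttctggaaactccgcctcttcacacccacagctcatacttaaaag
Bst2, chr8:71537473-71537632, minus strand: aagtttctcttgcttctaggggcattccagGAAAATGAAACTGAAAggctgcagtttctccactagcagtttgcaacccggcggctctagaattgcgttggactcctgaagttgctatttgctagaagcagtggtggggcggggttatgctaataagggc
Slfn2, chr11:83064952-83065111, plus strand: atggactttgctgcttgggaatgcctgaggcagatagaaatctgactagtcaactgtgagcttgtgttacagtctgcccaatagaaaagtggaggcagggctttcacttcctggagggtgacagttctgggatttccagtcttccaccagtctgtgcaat

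The matches of Ifit1 began 104 and 85 bases before the start, those of Ifit3 156 and 122, and those of Bst2 130 and 124. Isg15 held 3 overlapping matches, which began 78, 72 and 66 bases before the start. Of the 11 core inducible members with a row, a list of strongly inducible genes, 10 matched the table and 5 held a match. Among genes outside the group that are more often linked to interferon gamma (Gbp genes, immunity-related GTPases and others), 10 of 12 held a match, and of the interferon receptors and their kinases and STATs 0 of 8. A match is a description of letters in this window and shows no binding.

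After filtering, 2971 of 4803 barcodes were kept as T cells. WT 1 gave 1276 and mutant 1 gave 882, while WT 2 gave 631 and mutant 2 only 182. Kept cells of a library held between 1705481 and 12040929 UMIs (unique molecular identifiers, 1 per captured RNA molecule). Median UMIs per cell lay between 8638 and 9034. A Cd3 UMI was found in 99.9% of kept cells and a Cd4 UMI in 88.6%. No pair of libraries shared more than 2 kept barcodes. A cluster of 106 barcodes led by B cell and epithelial genes, with a Cd3 UMI in 25.5%, was left out. Levels below are CPM (a gene's UMIs divided by all UMIs of the library's kept cells, scaled in the usual way). They are not divided by transcript length, since 3′ counting takes 1 tag per molecule.

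The summed level of the 40 members set apart the libraries numbered 1 from those numbered 2, in both genotypes. It was 3300 CPM in WT 1 and 2151 CPM in WT 2, against 3369 CPM in mutant 1 and 2222 CPM in mutant 2. WT 1 and mutant 1 were thus both higher than WT 2 and mutant 2, and the genotypes overlapped. Of the 35 members that passed the filter on low counts, 27 were higher in WT 1 and mutant 1 than in either other library and 0 were lower. Over all 10727 genes tested, 9.56% were higher in this way and 17.5% lower. This split was seen in the data, so it is described and not tested.

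**Figure D1:**
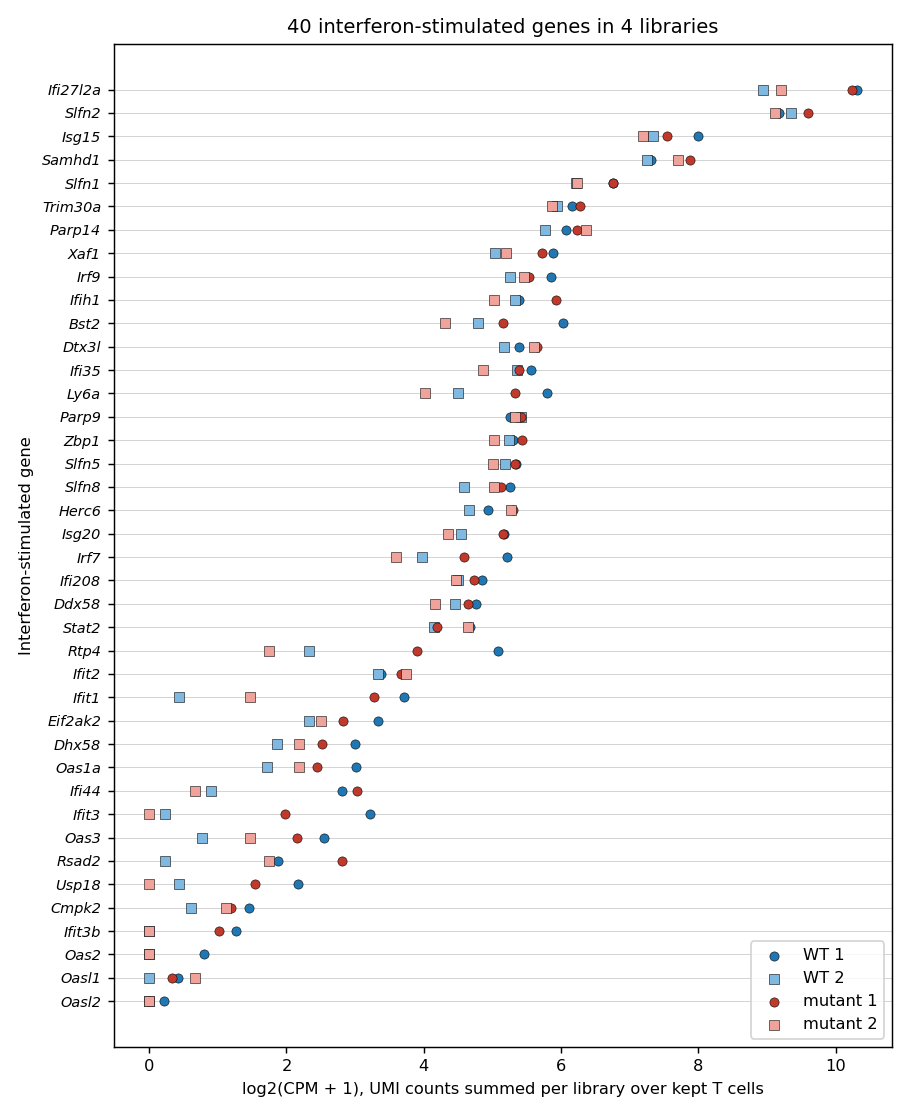
Level of each of the 40 members in the 4 libraries, as log2(CPM + 1), ordered by total UMIs, with circles for WT 1 and mutant 1 and squares for WT 2 and mutant 2. Most circles lie to the right of the squares, from Ifi27l2a at 1269 and 1202 CPM against 489 and 587 CPM down to the sparse Ifit genes, while Slfn2 and Parp9 show no such order.

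A handful of members made up most of the signal. Ifi27l2a, Slfn2 and Isg15 together held between 57.8% and 64.2% of member UMIs in each library. Ifi27l2a (ENSMUSG00000079017, chromosome 12, 103442167 to 103443680, minus strand, GENCODE on GRCm38) encodes a small mitochondrial and nuclear-envelope protein strongly induced by interferon. Its level was 1269 CPM in WT 1 and 1202 CPM in mutant 1, but 489 CPM in WT 2 and 587 CPM in mutant 2. At least 80.3% of cells in every library held an Ifi27l2a UMI, so the share of cells differed far less than the level. In the left-out group of B and epithelial barcodes, which may express it too and had a median of 4054 UMIs, 36.8% held one. Slfn2, a Schlafen protein that keeps T cells quiescent, was present in at least 92.3% of cells. Its 575 and 649 CPM in WT and 774 and 551 CPM in mutant libraries overlapped in every arrangement.

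Isg15, a ubiquitin-like protein joined to other proteins during the antiviral response, was the most abundant inducible member. Its level was 255 CPM in WT 1 and 185 CPM in mutant 1, above 162 CPM in WT 2 and 145 CPM in mutant 2, and 52.2% to 64.9% of cells held a UMI (9.43% of the B and epithelial barcodes). The other abundant members were Samhd1, Slfn1, Trim30a, Parp14 and Xaf1. Samhd1, which degrades the nucleotides needed for viral DNA synthesis, gave 158 and 151 CPM in WT and 235 and 208 CPM in mutant libraries. It was one of 5 members higher in both mutant libraries than in both WT libraries, with Parp14, Dtx3l, Herc6 and Ifit2. No tested member was lower in both, against 24.8% of all tested genes higher and 20.8% lower. Slfn1, a Schlafen protein that restrains T cell growth, gave 107 and 73.2 CPM in WT and 107 and 73.9 CPM in mutant libraries, near-identical between same-numbered libraries. Trim30a, a regulator of innate signalling, gave 70.8, 60.3, 76.2 and 57.5 CPM in WT 1, WT 2, mutant 1 and mutant 2. Xaf1, a pro-apoptotic protein, gave 57.9, 31.8, 51.9 and 35.8 CPM in that order. Parp14, a mono-ADP-ribosyltransferase, differed from them, with 66.3 and 53.5 CPM in WT and 74.5 and 81.5 CPM in mutant libraries.

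The IFIT family, whose proteins bind foreign RNA, was rare and uneven. Ifit1 (ENSMUSG00000034459, chromosome 19, 34640871 to 34650009, plus strand) gave 12.1 CPM in WT 1 (146 UMIs) and 8.66 CPM in mutant 1 (68 UMIs). WT 2 held 2 Ifit1 UMIs and mutant 2 held 3. Ifit3 followed, with 100 UMIs in WT 1 and 23 in mutant 1 but 1 in WT 2 and 0 in mutant 2, and Ifit3b had 17 and 8 against 0 and 0. These genes lie beside each other on chromosome 19 and Ifit3 and Ifit3b are close copies, so reads may be split between them. Ifit2 did not share the pattern: its 9.38 and 9.08 CPM in WT and 11.7 and 12.3 CPM in mutant libraries ordered by genotype rather than by library number. Its promoter windows held no match to the motif above.

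The other core inducible members were also sparse. Ifi44, a cytoplasmic protein of unclear function, had 72, 5, 56 and 1 UMIs in WT 1, WT 2, mutant 1 and mutant 2. Rsad2 (viperin, which makes a chain-terminating nucleotide) had 32, 1, 47 and 4. Usp18, which removes Isg15 from proteins and dampens the receptor, had 42, 2, 15 and 0, and Cmpk2, a mitochondrial nucleotide kinase beside Rsad2, had 21, 3, 10 and 2. All of these stood higher in WT 1 and mutant 1, but the shallow mutant 2 library limits what its counts can show. Oasl1, Oasl2 and the 2′-5′ oligoadenylate synthetase Oas2 had 7, 2 and 9 UMIs over all libraries. Among the remaining members, the receptor-transport protein Rtp4 had the widest spread, at 32.7 and 4.02 CPM in WT and 14.0 and 2.35 CPM in mutant libraries, a 14.0-fold range. Bst2 (tetherin, which holds virions at the cell surface), Irf7 (the factor that amplifies interferon production) and Ly6a (the surface antigen Sca-1) spanned 3.41-, 3.23- and 3.57-fold.

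Few cells carried several of the inducible members at once. A cell was called interferon-high when at least 4 of the 11 measured core members had a UMI. This held for 25 of 1276 cells in WT 1 (1.96%, exact 95% interval 1.27% to 2.88%) and 11 of 882 in mutant 1 (1.25%, 0.624% to 2.22%). WT 2 had 0 of 631, with an exact upper limit of 0.583%, and mutant 2 had 0 of 182, with an exact upper limit of 2.01%. These intervals cover counting error only. The upper limit for WT 2 lies under the intervals of WT 1 and mutant 1, while mutant 2 was too small to show the share seen in mutant 1. Counts ran through the cut without a gap. In WT 1 24 cells and in mutant 1 16 cells had 3 core members, and 14 and 7 had exactly 4. WT 2 and mutant 2 had 2 cells and 1 cell with 3. Such counts do not tell a graded range from a separate type, since detection was sparse.

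Together the 36 interferon-high cells were 1.21% of kept T cells and held 11.5% of core member UMIs and 5.78% of all member UMIs. They held 71.0% of Ifit3 UMIs, 52.5% of Ifit1, 49.2% of Usp18, 39.3% of Rsad2 and 38.8% of Ifi44, which follows in part from their definition. Of Isg15 and Ifit2, also in that definition, they held only 6.88% and 6.47%. For members outside that definition the shares were 15.8% of Rtp4, 11.6% of Irf7, 9.53% of Bst2 and 6.99% of Ifi27l2a, but only 1.53% of Slfn2. Their median depth of 9124.5 UMIs and 2620 genes was close to the 8762 UMIs and 2712 genes of other kept cells. A median of 24 members was detected in them and 8 in the others. Without them the summed member level was 3117 CPM in WT 1 and 3181 CPM in mutant 1, still above WT 2 and mutant 2.

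The summed core members were less concentrated than a cell-cycle list. Isg15 gave 3073 of the 3622 core UMIs in WT 1, 925 of 991 in WT 2, 1451 of 1772 in mutant 1 and 248 of 280 in mutant 2. Shares of the summed core thus largely follow Isg15 and not the sparse inducible members. The 1% of cells with most core member UMIs held 13.8% of them in WT 1 and 14.8% in mutant 1, but 7.16% in WT 2 and 7.50% in mutant 2. For G2 and M phase genes the same share ran from 43.1% to 58.5%, and for ribosomal protein genes from 3.24% to 3.94%. At the other end, 31.1% of WT 1 cells and 39.8% to 44.0% of cells of the other libraries had no core member UMI. Among cells with 1 core member it was Isg15 in 90.3% to 94.7%.

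The split between libraries was also seen at equal depth. Each cell was thinned to 3000 UMIs, which left out 13, 18, 34 and 22 cells of WT 1, WT 2, mutant 1 and mutant 2. Thinned cells with at least 20 member UMIs were 11.2% in WT 1 (exact 95% interval 9.55% to 13.1%) and 9.32% in mutant 1 (7.44% to 11.5%). In WT 2 they were 1.31% (0.565% to 2.56%), and in mutant 2 they were 0 of 160, with an upper bound of 2.28%. Median thinned counts differed far less, at 7, 6, 8 and 6, while the upper tails stood apart.

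**Figure D2:**
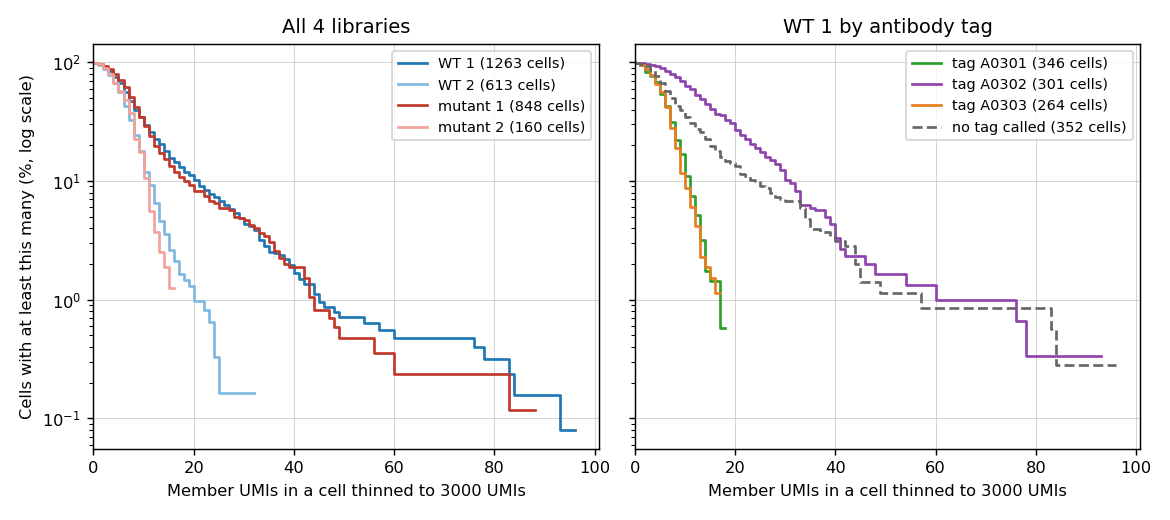
Share of cells, on a log scale, with at least a given number of member UMIs after thinning to 3000 UMIs per cell, for the 4 libraries (left) and for WT 1 cells split by antibody tag (right). WT 1 and mutant 1 share a long tail that reaches 96 and 88 UMIs, while WT 2 ends at 32 and mutant 2 at 16, and within WT 1 the tail belongs to tag A0302 and to cells without a called tag.

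The WT matrices also count 3 antibody tags, A0301, A0302 and A0303, and these divided WT 1 sharply. A tag was called where it had at least 10 UMIs and at least 2 times the next tag, a rule chosen after the data were seen. Summed member level was 2075 CPM in the 348 WT 1 cells with tag A0301 and 1974 CPM in the 264 with tag A0303. In cells with tag A0302 it was 5488 CPM, and in the 361 cells with no called tag 3627 CPM. The WT 1 cells with the other tags were thus near the level of WT 2, where tags A0301, A0302 and A0303 gave 2226, 2039 and 2224 CPM. Each tag is a single group of cells here, so no test is given. The labels do not say what a tag marks, and cells with Xist and no Y-linked UMI and cells with the reverse occurred in each tag of WT 1 (143 and 140 cells in tag A0302).

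All 13 interferon-high cells of WT 1 with a called tag carried tag A0302, 4.29% of the cells with that tag (exact 95% interval 2.30% to 7.23%). Tag A0301 had 0 of 348, with an exact upper limit of 1.05%, and tag A0303 had 0 of 264, with an exact upper limit of 1.39%. The other 12 lay among cells with no called tag. The shift was not limited to those cells: without them tag A0302 cells still had 5218 CPM. After thinning, the median was 13 member UMIs in tag A0302 cells against 6 in each other tag, and 30.6% of tag A0302 cells reached 20 UMIs against 0 of 346 and 0 of 264. Median depth was 9156 UMIs with tag A0302, 9171.5 with tag A0301 and 8771 with tag A0303, and median mitochondrial share 2.71%, 2.82% and 2.87%.

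Members stood out among all genes in the same comparison. There were 31 members with at least 50 UMIs over the 3 tags. All were higher with tag A0302 than with tags A0301 and A0303 together, and 18 were at least 2-fold higher. That sum takes in tag A0302, so sparse members could pass through it alone. Ifi44 had 52 UMIs there and 0 elsewhere, Ifit1 72 against 5, Oas1a 38 against 16 and Dhx58 32 against 18. Rtp4 had 210 against 27 and Eif2ak2 50 against 27. All of these are among the 18, so that count rests in part on the filter. Being higher was fixed for such members, but not for abundant ones such as Ifi27l2a (3111 UMIs with the other tags) and Slfn2 (3246). Of all 8671 genes that passed this filter, 0.484% were at least 2-fold higher, and 0.542% were at most 0.5-fold, which included 0 members. The median fold was 2.12 for members and 0.999 for all genes. With 1 group of cells on each side these are counts past a fold, with no test.

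Inducible members led the order. Ifi44 had 52 UMIs with tag A0302 and 0 with the other tags, at least 34.6-fold higher against a floor of 3 counts over both. Ifit3, with 49 UMIs against 0, fell just short of 50 UMIs and is not among the 31 members. It was at least 32.6-fold higher by the same floor. Ifit1 had 72 UMIs against 2 and 3, a 28.8-fold difference in CPM, and Rtp4 210 against 15 and 12, 15.5-fold. Ifi27l2a had 2638 CPM with tag A0302 against 538 and 507 CPM, 5.02-fold. Irf7 was 4.55-fold, Ly6a 4.19-fold, Bst2 3.13-fold, Isg15 2.35-fold and Samhd1 1.49-fold higher. Of the 31 members, Slfn2 at 1.23-fold and Ifit2 at 1.27-fold differed least. Folds of members with a promoter match (median 2.23, n = 12) and without one (2.01, n = 12) covered much the same range, 1.61 to 28.8 and 1.23 to 34.6.

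**Figure D3:**
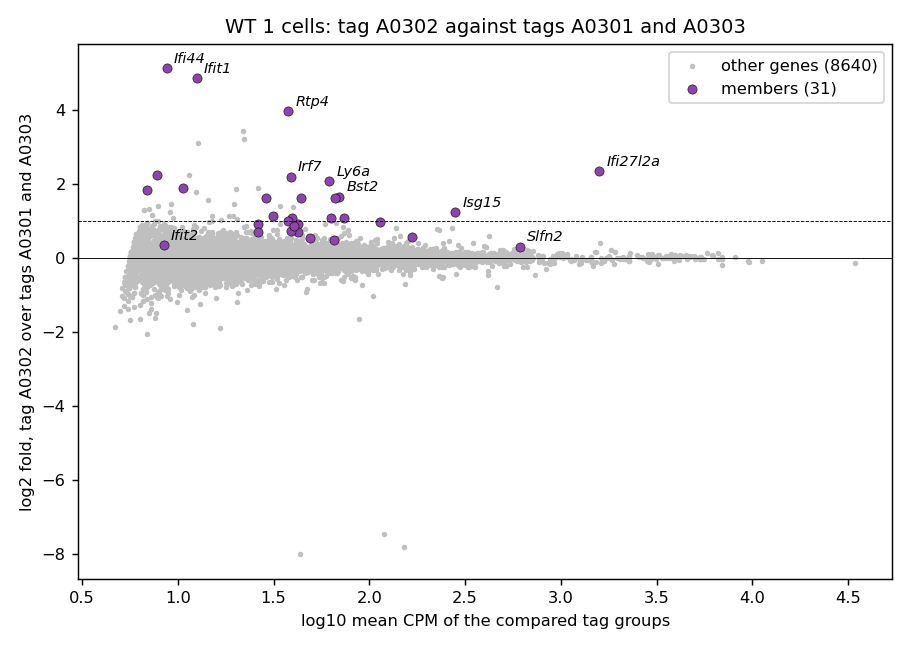
Log2 fold of tag A0302 over tags A0301 and A0303 in WT 1 against log10 mean CPM, for 8671 genes with at least 50 UMIs over the 3 tags. Sparse members such as Ifi44 reached that count through tag A0302. The 31 members (purple) all lie above 0 and 18 lie on or above the dashed line at 2-fold; Ifi44 is a lower bound against a floor of 3 counts, and the lowest grey points are immunoglobulin genes found with tag A0303.

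Other interferon-responsive genes were higher with tag A0302 as well. Of 14 genes of the interferon-gamma-linked list with enough UMIs, 13 were higher and 5 at least 2-fold higher. The GTPase Iigp1 led at 8.49-fold, with 68 UMIs against 16, so it passed the filter through tag A0302. The guanylate-binding Gbp6 followed at 3.61-fold. Class I presentation genes had a median fold of 1.20, and 0 of 18 reached 2-fold. The receptors and signalling genes had a median of 0.97, again with 0 of 10 at 2-fold. Outside these lists the largest folds were those of the chemokine Ccl5 (10.8-fold, 119 UMIs against 22) and the protease Gzmb (9.14-fold, 119 against 26). Both also passed the filter through tag A0302. In the clusters described below they led cluster 10, with Il10, Cxcr6 and Ccr9. Ifng was lower with tag A0302, at 0.288 of the level of the other tags. Tag A0303 cells carried the plasma cell genes Igha, Igkc and Jchain, with 1414, 1780 and 514 UMIs against at most 4 with tag A0302. Whether other cells or the handling of the cells had a part in the member level was not tested.

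No UMI of a listed type I interferon gene was found in the kept T cells. Of 20 interferon genes listed, 19 had 0 UMIs in kept T cells, all listed type I and type III genes among them, and Ifng had 409. Of 8 markers of plasmacytoid dendritic cells, a main source of type I interferon, 4 (Siglech, Cox6a2, Klk1 and Cd300c) had 0 UMIs. The other 4, led by Ccr9, which gut T cells also express, brought the list to 91.3 CPM in WT 1 and 47.6 to 59.2 CPM in the other libraries. Plasma cell markers summed to 225 CPM in WT 1 against 52.2 to 73.4 CPM in the other libraries, and their part in the member level was not tested.

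Tonic levels in T cell states were compared within clusters made without interferon-stimulated genes. Across states with at least 20 cells in 2 or more libraries, the Tfh-like state (T follicular helper cells, which instruct B cells) had the highest mean of all members relative to the library. Its member level was 4223 and 2180 CPM in WT and 3782 and 2458 CPM in mutant libraries. Relative to the whole library this was 1.13 ± 0.110 (SD, n = 4). For core members alone it was 1.04, below cluster 6 (1.37), cluster 1 (1.32) and cluster 5 (1.20). Most core UMIs were those of Isg15, so these core ratios largely follow that gene. With interferon genes kept in the clustering, cells named Tfh-like stood at 0.957, below naive or memory-like cells (1.13). An unnamed cluster led by Id1, Ctsl and Ascl2 stood at 1.37. Those genes also led a cluster counted as Tfh-like above, and the name now covered 534 cells rather than 821. The ratios 1.13 and 0.957 of Tfh-like cells thus rest on different sets of cells. Cytotoxic or Th1-like cells, led by Eomes and Nkg7, were lowest, at 1318 and 928 CPM in WT and 1199 CPM in mutant 1, or 0.396 ± 0.0377 (SD, n = 3) of their library. Every value of this state lay below every value of the other states. The ratios of cluster 0 (led by Id2 and Gpr183, 0.948 ± 0.0715, n = 4), cluster 1 (led by Lpar3 and Egr3, 1.09 ± 0.158, n = 4) and naive or memory-like cells (0.938 ± 0.0726, n = 3) overlapped, and apart from the cytotoxic or Th1-like state, neighbours in the order did not differ beyond their spread.

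Single members followed different states. Ifi27l2a averaged 1148 CPM in Tfh-like cells and 893 CPM in naive or memory-like cells but 208 CPM in cytotoxic or Th1-like cells. Samhd1 averaged 240 CPM in Tfh-like and 27.9 CPM in cytotoxic or Th1-like cells. Slfn1 was lower in Tfh-like cells, at 57.3 CPM, than in naive or memory-like cells, at 153 CPM. Isg15 was highest in cluster 6 (284 CPM), cluster 1 (267 CPM) and cluster 5 (255 CPM, led by replication genes) and lowest in cytotoxic or Th1-like cells (43.1 CPM). Trim30a, a regulator of innate signalling, varied less, from 48.6 to 94.8 CPM. These are means over libraries of cells that also shaped the clusters, so they are a description.

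**Figure D4:**
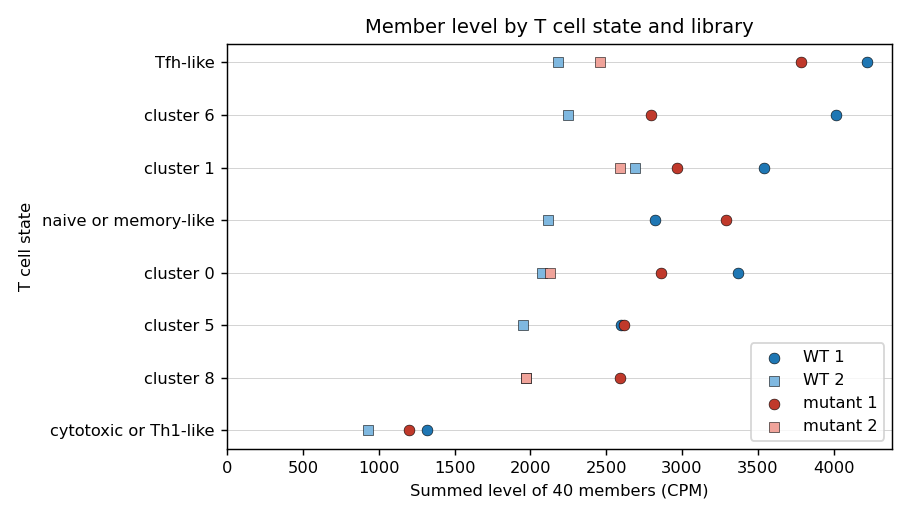
Summed level of the 40 members, in CPM, by T cell state and library, for states with at least 20 cells in at least 2 libraries. Circles (WT 1 and mutant 1) lie to the right of squares (WT 2 and mutant 2) in every state where both are drawn, and cytotoxic or Th1-like cells lie lowest, between 928 and 1318 CPM.

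Interferon-high cells came from many states. Tfh-like cells held 12 of the 36 (1.46% of 821), cluster 0 held 7 (1.54% of 456), naive or memory-like cells 6 (1.36% of 440) and cluster 1 held 4 (0.893% of 448). The highest shares were in small states, with 2 of 24 proliferating-like cells (8.33%, exact 95% interval 1.03% to 27.0%), both from mutant 1, and 2 of 90 cells of cluster 10 (2.22%, 0.270% to 7.80%), both from WT 1. Cluster 6 held 2 (1.13% of 177) and cluster 5 held 1 (0.552% of 181), while cluster 8 had 0 of 115 and receptor-stimulated-like cells 0 of 73. These shares pool the libraries, and WT 2 and mutant 2 had no interferon-high cell. Cytotoxic or Th1-like cells had 0 of 146, which their exact interval puts at up to 2.49%. The exact intervals of all these states overlapped. When interferon-stimulated genes were kept in the clustering, 59 cells led by Ifit3 and Ifit1 formed a cluster of their own, of which 45 came from WT 1, 4 from WT 2, 10 from mutant 1 and 0 from mutant 2, and 17 were interferon-high. Cells with tag A0302 had a higher summed level in each state of WT 1 with at least 20 cells on both sides, 2.30- to 2.83-fold that of tags A0301 and A0303: Tfh-like cells had 6702 CPM against 2371 CPM, and naive or memory-like cells 4675 CPM against 1841 CPM.

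The question of genotype was whether WT and TgfbrIWT/mut cells differ in these genes. Over all kept T cells no member passed edgeR's quasi-likelihood test at an adjusted p of 0.05: 0 of 35 rose and 0 fell, while 0.942% of 10727 genes rose and 0.578% fell (1.52% in all). Their median log2 fold change, mutant minus WT, was -0.06, against 0.00 for all genes, and 16 were positive and 19 negative. At an unadjusted p under 0.05 there were 6 members, 5 higher and 1 lower, beside 12.6% of all genes, and DESeq2 called 0 members, with 1 at an unadjusted p under 0.05. Samhd1 came nearest, with a log2 fold change of 0.50 ± 0.13 (SE) and an adjusted p of 0.0773 in edgeR. Its log2 fold change was 0.52 ± 0.14 in Tfh-like cells and 0.17 ± 0.18 in cluster 0. Herc6, an E3 ligase of the Isg15 system, followed at 0.46 ± 0.16 and an adjusted p of 0.194 in edgeR, from 29.6 and 24.3 CPM in WT to 38.4 and 37.5 CPM in mutant libraries. Rsad2 stood at 1.38 ± 0.55 with an adjusted p of 0.282 in edgeR, resting on 84 UMIs. Bst2 was the member lower in the mutant at an unadjusted p under 0.05 in edgeR, at -0.68 ± 0.30. Its 64.0 and 26.7 CPM in WT and 34.6 and 18.8 CPM in mutant libraries overlapped, though. These all-cell values also mix states whose shares differed. Tfh-like cells were 204 of 1276 in WT 1 and 178 of 631 in WT 2. In mutant 1 they were 386 of 882 and in mutant 2 53 of 182. Naive or memory-like cells were 23.8%, 13.8%, 3.97% and 7.69% in WT 1, WT 2, mutant 1 and mutant 2. How far this shaped the all-cell values was not tested.

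By role the tested members gave no common direction. ADP-ribosylation genes (Parp9, Parp14 and Dtx3l) had a median log2 fold change of 0.33, the IFIT genes -0.10, the RNA and DNA sensors -0.10, and the transcription factors Irf7, Irf9 and Stat2 -0.15, with 0 called in each. Of pathway genes outside the members, 0 of 10 receptors and signalling genes, 0 of 8 negative regulators, 0 of 9 sensing genes and 0 of 18 class I presentation genes passed in edgeR (4, 3, 1 and 2 at an unadjusted p under 0.05), and 1 of 15 interferon-gamma-linked and 1 of 43 other interferon-stimulated genes rose. Those were Iigp1 (9.30 and 8.04 CPM in WT, 53.3 and 14.7 CPM in mutant, log2 fold change 2.13 ± 0.32, adjusted p = 0.00213 in edgeR) and the chromatin reader Sp140 (75.8 and 75.6 CPM against 111 and 116 CPM, 0.55 ± 0.13, adjusted p = 0.0381 in edgeR).

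Within states the result was alike in count. In Tfh-like cells 0 of 30 tested members were called, beside 0.157% of 8939 genes higher and 0.123% lower (0.28% in all), with 6 at an unadjusted p under 0.05 (7.58% of all genes) and a median log2 fold change of 0.15. DESeq2 called 0 there, with 1 at an unadjusted p under 0.05. In cluster 0, the most abundant other state with enough cells, 0 of 26 were called, beside 0.0273% of 7316 genes higher and 0.0137% lower (0.041% in all). There were 2 at an unadjusted p under 0.05 (7.45% of all genes), Xaf1 and Ly6a, both lower in the mutant, and a median of -0.17; DESeq2 gave 0 by either measure. The difference of the genotype effect between these states was tested as an interaction with edgeR, and 0 of 29 members passed, beside 0.0687% of 8730 genes higher and 0.0229% lower (0.0916% in all). Unadjusted, 9 were under 0.05 (5.46% of all genes), all with a more positive effect in Tfh-like cells. Ifit1 had the lowest adjusted p, 0.0528, for a difference of 3.10 ± 0.71 (SE) on the log2 scale. In Tfh-like cells it had 19 and 1 UMIs in WT and 59 and 0 in mutant libraries, so its mutant UMIs came from mutant 1 alone.

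Calls in the genotype comparison changed with the cells and libraries that entered it. With WT 1 limited to tags A0301 and A0303, 7 of 32 tested members were called higher in the mutant and 0 lower in edgeR, beside 1.6% of 10560 genes higher and 0.938% lower, with a median log2 fold change of 0.43. Those were Ifit1 (2.83 ± 0.49), Rsad2, Herc6, Ifi27l2a (0.81 ± 0.19), Samhd1, Dtx3l and Rtp4. Tag A0302 was left out because its level was high, and cells with no called tag, at 3627 CPM, went with it. This lowers the WT 1 level, so the direction of the shift follows from that choice and these calls are no test of genotype. Mutant 1, which has no tags, kept its own upper tail. Without WT 2 instead, 5 of 37 tested members were called lower in the mutant, Rtp4, Bst2, Ifit3, Irf7 and Ly6a, beside 0.881% of 11243 genes. Without WT 1, Ifit1 and Rsad2 were called higher of 35, beside 0.266% of 10918 genes. Without mutant 2, Samhd1 and Ifih1 were called higher of 37, beside 1.29% of 11198 genes. Only the WT libraries carried antibody tags, so hashing and genotype cannot be told apart. Within-library splits of mutant 1 had no label to rest on; its cells with Y-linked and no Xist UMI had 3542 CPM and those with the reverse 2971 CPM.

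**Figure D5:**
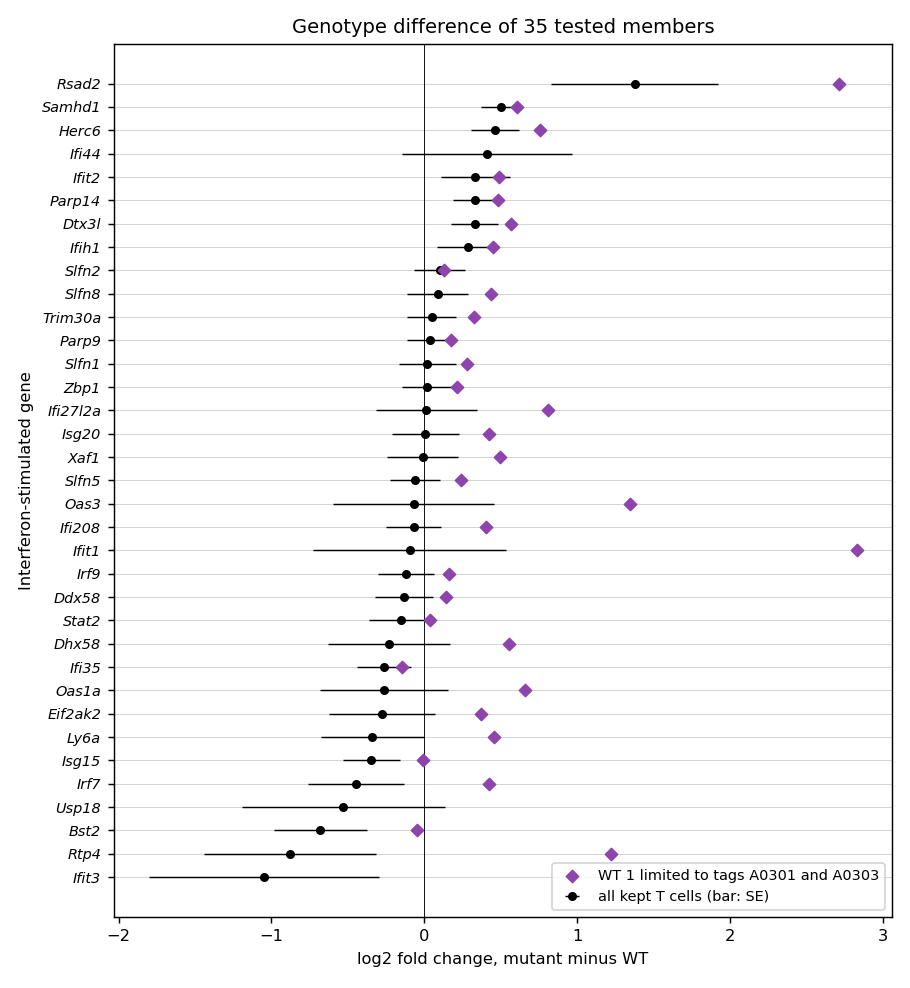
Log2 fold change, mutant minus WT, of the 35 tested members from edgeR, where black points with bars are all kept T cells with their SE and purple diamonds limit WT 1 to tags A0301 and A0303, for the 32 members tested there. Diamonds lie to the right of the points, and the median moves from -0.06 to 0.43. The direction of this shift follows from leaving out WT 1 cells with a high member level.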

How the data were processed

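The authors deposited UMI counts per gene and barcode from 10x 3′ libraries (kit v2 per the labels). The submitters' processing notes name Cell Ranger 6.0.0, Seurat 4 and mm10. Members and lists were chosen with earlier results of these data known. Named genes were the 8 members with most UMIs, members passing adjusted p 0.05, core members with at least 20 UMIs, listed non-members passing, and 12 non-members most correlated with core members, of which 1 is not reported here.

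Cells with at least 500 genes and at most 10% mitochondrial UMIs were kept (3108), less 31 Scrublet doublets and a cluster of 106 B and epithelial cells. Leiden clustering (resolution 0.8, 30 components, 15 neighbours, seed 0, scanpy 1.11.5) left interferon-stimulated genes out of the variable genes. A state took a name from at least 3 fixed markers among 50 leading genes.

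Counts summed per library were tested with edgeR 4.0.16 (filterByExpr, TMM, quasi-likelihood, prior count 2, Benjamini-Hochberg), as designed. Each SE given with an edgeR value is approximate: the size of the log2 fold change divided by the square root of the test's F statistic. The test was checked on simulated data. Alternatives were leaving out libraries, a replicate block, DESeq2 1.42.0, other scaling, filters and cell sets.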

Additional observations from a re-analysis of the deposited data

Results flagged for a closer look

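WT 1 cells with antibody tag A0302 had a summed member level of 5488 CPM and 13 interferon-high cells. They are listed because the antibody counts lie outside the gene expression comparison and because the level exceeded that of WT 1 cells with tags A0301 and A0303 (2075 and 1974 CPM, 0 interferon-high cells in each). The same tag gave 2039 CPM and 0 interferon-high cells in WT 2. No test is given with 1 group of cells per tag.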

How the results depend on the processing

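Members called in all kept T cells (0) became 3 with the replicate block (Samhd1 higher, Bst2 and Rtp4 lower). There 201 of 10727 genes were called higher and 127 lower. They became 3 with no filter on low counts (Rsad2 higher, Bst2 and Rtp4 lower), beside 242 of 16832 genes higher and 172 lower. They became 7 with WT 1 limited to tags A0301 and A0303, beside 169 of 10560 genes higher and 99 lower. Leaving out 1 library gave 0 to 5 calls. In Tfh-like cells (0) 2 were called with doublets kept, beside 50 of 8878 genes higher and 31 lower. Members were also called there without 1 library, with median log2 fold changes from -0.25 to 0.59. In cluster 0 (0), 1 was called with no filter, beside 6 of 13168 genes higher and 20 lower. Another 1 was called with WT 1 limited to those tags, beside 5 of 7063 genes higher and 11 lower. The interaction (0) gave 1 with no filter, beside 11 of 15291 genes higher and 2 lower. Some fits without 1 library gave calls in both. Their medians ran from -0.63 to 0.30 in cluster 0 and from 0.155 to 0.431 for the interaction. Where a library was left out, the lone one was assumed to vary like the others. Over all genes 101 were called higher and 62 lower in all kept T cells, against 201 and 127 with the replicate block, 37 and 26 with DESeq2, 58 and 37 with doublets kept, 59 and 49 with interferon genes in the clustering, 242 and 172 with no filter, and 24 to 167 and 17 to 99 without 1 library. Over all alternatives Tfh-like cells gave 0 to 118 higher and 1 to 56 lower (14 and 11), the most abundant other state gave 0 to 43 and 0 to 49 (2 and 1; this was cluster 0 except where cells were clustered again with doublets kept, interferon genes included or a stricter mitochondrial limit, when it was another cluster) and the interaction 0 to 11 and 0 to 2 (6 and 2). With 2 pairs, replicate 1 deviations in WT and mutant correlated at 0.0344 over all genes and 0.829 over the 35 members, so the numbers were not taken to pair libraries. No other alternative gave a call of a member.

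Interferon-high shares were 3.84% (WT 1) and 3.06% (mutant 1) at 3 or more core members, 0.862% and 0.454% at 5 or more, and 0.713% and 0.472% after thinning. The top 1% of cells held 16.7% and 10.2% of thinned core UMIs in WT 1 and WT 2, and 7.27%, 3.57% and 7.61% of all member UMIs in WT 1, WT 2 and mutant 1. The top 5% held 38.7% and 31.8% of thinned core UMIs in WT 1 and WT 2, and 22.1%, 14.3%, 22.9% and 15.6% of all member UMIs in WT 1, WT 2, mutant 1 and mutant 2. With interferon genes in the clustering, Tfh-like cells stood at 0.957 and naive or memory-like cells at 1.13 of their library. The name Tfh-like then covered 534 cells rather than 821. Core members alone, most of whose UMIs were Isg15, gave 0.848, 1.32, 1.20, 1.37 and 0.610 in clusters 0, 1, 5, 6 and 8. They gave 0.257 in cytotoxic or Th1-like and 0.745 in naive or memory-like cells. The motif lengthened by CT at its end was in 25.8% of member promoters and 0.303% of all genes. The cause of these shifts was not tested. Mutant 2, with 182 cells, limits every share. Calling a tag at 4 or 10 times the next moved no tag's level beyond counting error.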

Other observations

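Across cells, the levels of 10203 genes were compared with the summed core members by the median Pearson r over the 4 libraries. Most UMIs of that sum were those of Isg15, for 3073 of 3622 in WT 1. Among the genes outside the list that were most like them were Psme2 (0.24), Gapdh (0.20), Psma4, Aldoa, Psme1, Psmb8, Ctsb, Gbp6, Atp5g1, Pomp and Ybx1 (0.17). Psme1, Psme2, Psmb8, Psma4 and Pomp are parts, activators or assembly factors of the proteasome. Sparse counts and shared depth limit all of these, and no test is given. Ifi27l2a, the member most like the core, had 0.24.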
